A study of Mus musculus with 8 samples.

Results

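The interferon-inducible GTPases of the IRG family (Iigp1, Igtp, Irgm1, Irgm2 and Ifi47) and the GBP family (Gbp2, Gbp3 and Gbp6) were followed across 8 arrays of mouse mammary tumour cells. These 8 genes were taken by gene name or accession, with all of their probes, out of 18883 named genes on the array, and they had 9 probes out of 41174. The members were chosen by their log2 ratios, with the difference between Snd1 knockdown and vector cells already known, so their values in that comparison are a description and no test of them is given. Sample RNA was labelled with Cy5, and a common reference RNA from 11 mouse cell lines was labelled with Cy3 on every array. Levels are log2 ratios of Cy5 over Cy3, so that 1 unit is a 2-fold difference and 0 is the level of the reference.

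All cells were FVB-strain PyMT tumour lines kept in 50 uM CPT for 36 h, controls included, and cells without the drug were not analysed here. The wild-type line WTA carried either the lentiviral hairpin LKO1-shSnd1 (3 arrays) or the empty LKO1 vector (3 arrays), after puromycin selection. The Mtdh-knockout line KO2 carried LmPGK-mMtdh-ires2-GFP (1 array) or the same vector with the W391D point mutation in Mtdh (1 array), after sorting for GFP. Mtdh is a scaffold protein that binds the nuclease Snd1, and the W391D substitution is known to weaken that binding. Each genotype was 1 tumour line, the labels name 1 hairpin and an empty vector as its control, and the rescue constructs had no replicate. The labels do not say whether the replicates were separate cultures, so the p-values below speak only of array-to-array spread, part or all of which may be technical.

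IRG and GBP proteins are dynamin-like GTPases that interferons induce through the JAK-STAT pathway. They bind the vacuoles of intracellular pathogens, and effector members such as Iigp1 and Ifi47 build up on the vacuole membrane, whereas the regulatory members Irgm1, Irgm2 and Igtp sit on the cell's own membranes and hold the effectors inactive there. GBPs coat vacuoles and bacteria and promote inflammasome activation, and components of the autophagy conjugation system direct both families to their targets. Transcription of such genes is known to run through 2 kinds of DNA element, the interferon-stimulated response element (ISRE), bound by IRF factors and the ISGF3 complex, and the gamma-activated site (GAS), through which interferon gamma acts.

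The promoters of 4 member genes are shown because they hold these letters close to the start and belong to genes that differed widely in the measurements below. Each line is the 250 bases before the annotated start, 5′ to 3′ on the gene's strand, from RefSeq's annotation of GRCm38.p6. The positions are chr11:58199306-58199555 (plus strand) for Igtp, chr11:58214727-58214976 (plus strand) for Irgm2, chr11:48871421-48871670 (minus strand) for Irgm1 and chr3:142620413-142620662 (plus strand) for Gbp2. Capitals mark matches on either strand to GAAA, any 2 bases and GAAA again (ISRE) and to TTC, any 3 bases and GAA (GAS), which reads the same on both strands.
Igtp: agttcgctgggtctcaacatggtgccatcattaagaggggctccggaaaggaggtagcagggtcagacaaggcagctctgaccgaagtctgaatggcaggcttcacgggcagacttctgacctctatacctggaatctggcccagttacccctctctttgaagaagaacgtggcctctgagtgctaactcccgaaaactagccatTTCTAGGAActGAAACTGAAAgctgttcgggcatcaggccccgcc
Irgm2: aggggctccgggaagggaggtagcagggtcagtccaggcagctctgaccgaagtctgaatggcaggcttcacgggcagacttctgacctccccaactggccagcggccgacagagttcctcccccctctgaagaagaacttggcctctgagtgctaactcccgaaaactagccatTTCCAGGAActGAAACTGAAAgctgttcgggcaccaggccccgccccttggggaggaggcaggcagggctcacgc
Irgm1: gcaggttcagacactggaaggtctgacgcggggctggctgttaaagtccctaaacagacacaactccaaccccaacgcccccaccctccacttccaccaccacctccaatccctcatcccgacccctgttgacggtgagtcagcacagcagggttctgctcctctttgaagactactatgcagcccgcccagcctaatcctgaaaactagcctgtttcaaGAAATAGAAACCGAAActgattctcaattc
Gbp2: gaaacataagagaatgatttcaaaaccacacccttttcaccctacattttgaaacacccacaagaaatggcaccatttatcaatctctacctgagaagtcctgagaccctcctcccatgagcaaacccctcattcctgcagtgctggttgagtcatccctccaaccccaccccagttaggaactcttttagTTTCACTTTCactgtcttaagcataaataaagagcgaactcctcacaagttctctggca

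In Igtp a GAS match lay 45 to 37 bases before the start and an ISRE match 34 to 25 bases before it. In Irgm2 the same pair lay at 75 to 67 and 64 to 55 bases. Irgm1 had 2 overlapping ISRE matches, at 30 to 21 and 24 to 15 bases, and no GAS match in this window. Gbp2 had 1 ISRE match on the minus strand, 59 to 50 bases before the start.

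RefSeq's table held 7 promoters of 6 member genes, and none for Iigp1 or Gbp6. An ISRE match was present in 5 of these 6 genes (Gbp2, Gbp3, Igtp, Irgm1 and Irgm2) and a GAS match in 2 (Igtp and Irgm2). The first of the 2 Gbp3 starts (chr3:142559794-142560043, plus strand) had overlapping ISRE matches at 45 to 36 and 39 to 30 bases, and the second had no match. The Ifi47 promoter (chr11:49076337-49076586, plus strand) had neither motif. Among all 32851 promoters of the same length, 2.98% held the ISRE letters and 7.02% the GAS letters. Counted by gene, as for the members, 936 of 27025 genes held the ISRE letters and 2197 the GAS letters. Igtp and Irgm2, which are neighbours with no other protein-coding gene between them, shared an identical run of 55 bases, 181 to 127 bases before the start in Igtp and 215 to 161 in Irgm2, which holds neither motif match, whereas no other pair of member genes shared a run longer than 11 bases. A match describes letters and is not a known binding site, and a missing match says only that the letters are not in this window.

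**Figure D1:**
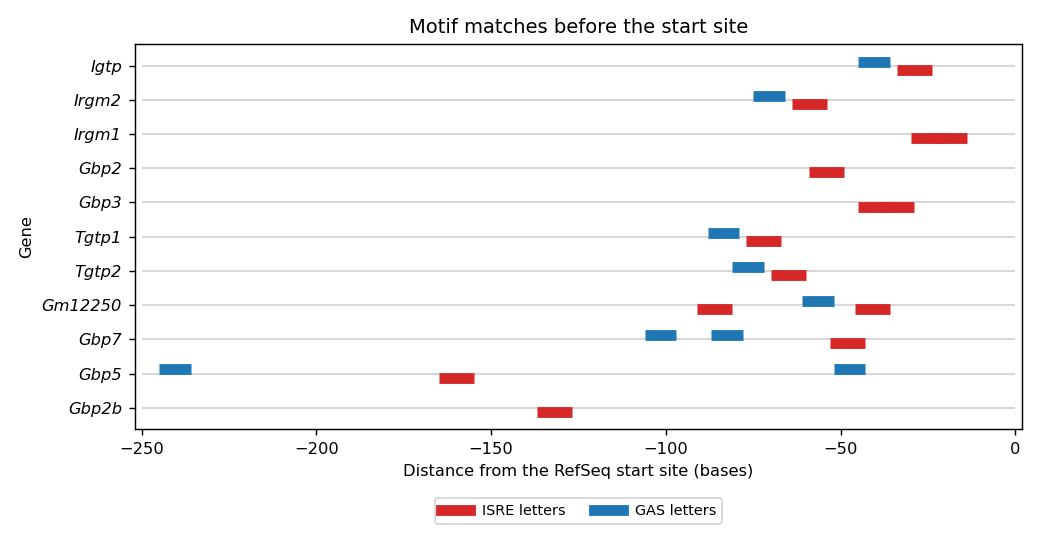
Positions of ISRE and GAS letter matches (coloured marks, by motif) in the promoters of member and other IRG and GBP genes, with the distance from the annotated start in bases on the horizontal axis and 1 line for each gene that has a match. The Igtp and Irgm2 matches have the same spacing, and those of Irgm2 lie farther from the start.

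Between 78.02% and 88.47% of 43379 spots were well above background in Cy5, and median Cy5 signals were 158 to 363 against a background of 61 to 72. The knockdown was visible at Snd1, which was 0.90 ± 0.06 lower (log2, SE, n = 3 and 3, 1.86-fold, adjusted p = 1.03e-05 by limma), with no overlap between the groups. Mtdh was at 0.42 with the wild-type construct and at -0.10 with W391D (-0.52, where the scanner software's errors combine to 0.29). Its other probe was at 0.01 and -0.16, a difference of -0.18 that was smaller than its combined error of 0.29. The mutant array thus had less Mtdh signal on both probes, by more than the error only on the first. All 10 epithelial marker genes were well above background on every array, with 7 lower and 2 higher in knockdown cells (mean log2 ratios of 1.82 to 1.92, against 2.13 to 2.23 in vector cells). Of 10 tested fibroblast markers, 7 were higher and 0 lower in the knockdown cells, and their mean log2 ratio was -3.01 to -2.93 there against -3.98 to -3.94 in vector cells. Of 10 tested leukocyte markers, 1 was higher and 1 lower, and of 6 tested endothelial markers 2 were higher and 2 lower. Means over all 11 leukocyte markers on the array were -1.34 to -1.28 in knockdown and -1.40 to -1.35 in vector cells. Over all 8 endothelial markers they were 0.23 to 0.31 and 0.18 to 0.24, and they include Tek, which was not well above background on any array. Beside these calls, 23.6% of all features were called higher and 21.1% lower. Fewer cells of a type and less RNA per cell cannot be told apart in bulk RNA, and the part of these markers in the results was not tested.

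Among the 8 GTPases, 7 lay lower on all 3 knockdown arrays than on any vector array, and Irgm1 did not. Differences, knockdown minus vector, ran from -3.73 for Iigp1 to -0.09 for Irgm1 with a median of -2.07 (log2), beside a median of 0.02 over all features. All 9 probes were well above background in Cy5 on 8 of 8 arrays. Arrays of 1 group differed by at most 0.37 and by a median of 0.10 (6 pairs of arrays, 9 probes). For the background, 24.5% of all features had the 3 knockdown values below the 3 vector values. The fit over all features called 7 of the 8 genes lower, against 21.1% of 25904 features tested, and 5 of the 8 both called and at least 2-fold lower, against 1.51%. Nothing further is read from these counts, since the same contrast chose the genes.

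**Figure D2:**
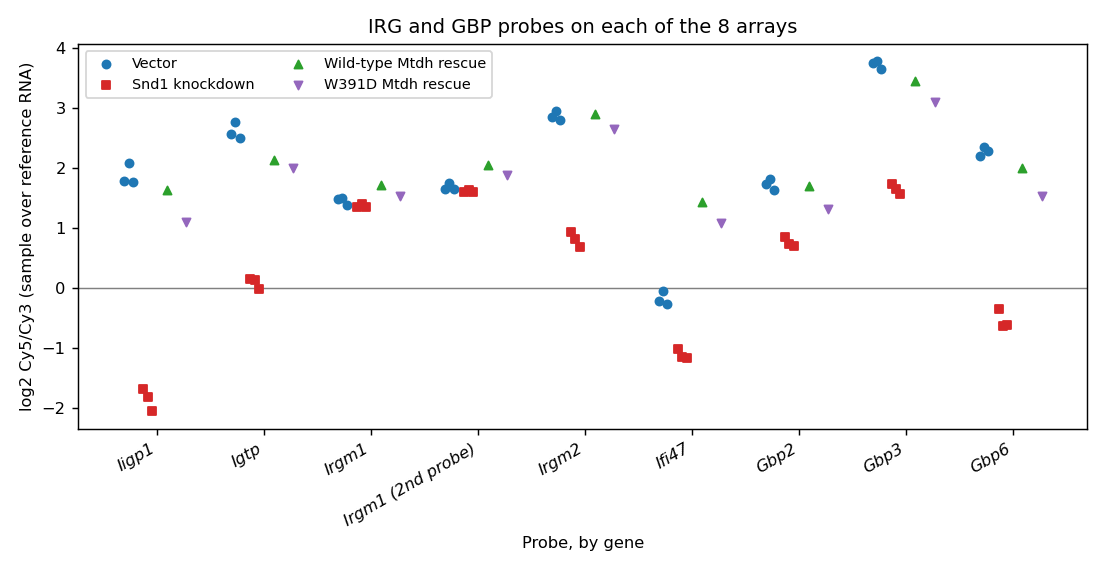
Log2 Cy5/Cy3 (vertical axis) of the 9 probes of the 8 GTPase genes (horizontal axis), with 1 point per array and colour and shape by group. The knockdown points lie well below the vector points for every gene but Irgm1, whose points lie close together, and Ifi47 lies higher in the rescue cells (1.44 and 1.09) than in any vector sample.

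Iigp1, an effector IRG that oligomerises on pathogen vacuoles, stood at -1.68, -1.82 and -2.05 in the 3 knockdown samples and at 1.79, 2.08 and 1.77 in the vector samples. The knockdown level was below the reference RNA and the vector level above it, with a wide gap between the groups. The difference was -3.73 ± 0.11 (log2, SE, n = 3 and 3), or 13.2-fold. On the background-corrected scale its Cy5 signal was 125, 150 and 126 in the knockdown samples and 2100, 3820 and 2700 in the vector samples. Cy5 signals of single genes, here and below, include an offset of 50 added in the correction. The knockdown signals were thus dim. With the log ratios that the scanner software computed, the difference was -4.92.

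Ifi47, another effector IRG, was at -1.02, -1.15 and -1.17 with the hairpin and at -0.21, -0.05 and -0.26 with the empty vector. All 6 values were below the reference, and the groups did not overlap. The difference was -0.94 ± 0.07, or 1.92-fold. It reached -1.41 with the scanner software's log ratios. The Cy5 signals of Ifi47 were 148, 204 and 179 in knockdown cells.

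Of the regulatory IRGs, Igtp was at 0.16, 0.14 and -0.01 in knockdown cells and at 2.57, 2.77 and 2.50 in vector cells. Its knockdown values lay at about the reference level and its vector values well above it, a difference of -2.52 ± 0.08 (log2), or 5.74-fold. Irgm2, its neighbour with the same motif spacing in the promoter lines above, was at 0.94, 0.82 and 0.68 against 2.86, 2.96 and 2.80. Its difference was -2.06 ± 0.07, or 4.17-fold, and its knockdown values stayed above the reference.

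Irgm1, the third regulatory IRG, was at 1.35, 1.41 and 1.35 in knockdown cells and at 1.48, 1.51 and 1.39 in vector cells. The ranges overlapped, and the difference of -0.09 ± 0.05 was the smallest of the 8. Its other probe read 1.61, 1.64 and 1.61 against 1.66, 1.75 and 1.66, a difference of -0.07 without overlap. Under median centring of the arrays in place of loess the first probe gave -0.24 and was called lower, as under no other alternative that could be tested. Irgm1 has ISRE letters in its promoter, as Igtp and Irgm2 do.

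Gbp6 was at -0.34, -0.63 and -0.62 in the knockdown samples and at 2.21, 2.35 and 2.29 in the vector samples. It was the GBP with the widest separation, -2.81 ± 0.08, or 7.01-fold. Its Cy5 signals of 108, 118 and 122 in knockdown cells were dim beside 887, 1810 and 1430 in vector cells. The scanner software's log ratios gave a difference of -4.10.

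Gbp3 was at 1.73, 1.66 and 1.57 in knockdown cells against 3.75, 3.78 and 3.66 in vector cells, a difference of -2.07 ± 0.06, or 4.21-fold. Gbp2, which coats vacuoles and bacteria early after interferon exposure, was at 0.85, 0.74 and 0.71 against 1.74, 1.82 and 1.63. Its difference was -0.96 ± 0.06, or 1.95-fold, and -1.52 when the Cy5 channel alone was used. Gbp2 and Gbp3 lie on chromosome 3 with 1 other GBP gene, Gbp2b, between them.

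In the order of the differences, Gbp3 and Irgm2 did not differ beyond their standard errors, nor did Gbp2 and Ifi47, while the other steps were larger than the errors. The order within these pairs changed with processing. Gbp2 and Ifi47 were at -1.01 and -1.41 with the scanner software's log ratios, and at -1.52 and -1.23 with Cy5 alone. Gbp3 and Irgm2 were at -2.20 and -2.55 with Cy5 alone. The families did not separate in the order of the main fit, since Iigp1 and Irgm1, both IRGs, stood at its ends. Knockdown and vector arrays 1 shared a slide and arrays 2 and 3 of both groups shared another. Within the first slide the members' median difference was -1.97, within the second -2.12, and each of the 8 genes was lower in the knockdown on both slides.

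**Figure D3:**
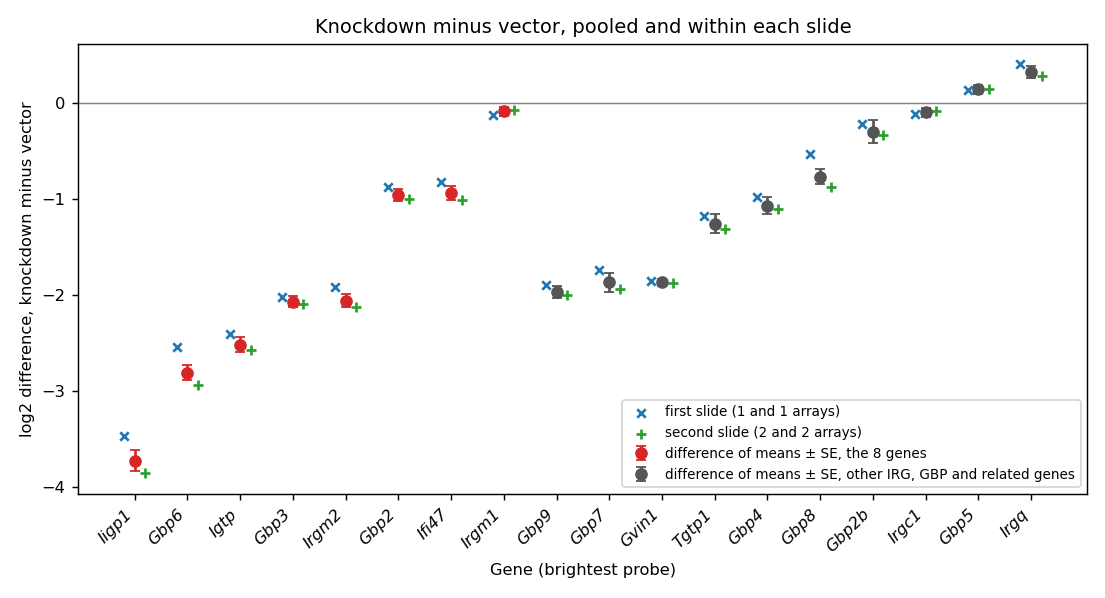
Knockdown minus vector difference (log2 Cy5/Cy3, vertical axis) of the 8 GTPase genes (red) and 10 other IRG, GBP and related genes (grey), as the difference of means with its standard error from limma (circles) and as the differences within each of the 2 slides (crosses). Among the 8 genes Iigp1 lies farthest from 0 at -3.73 and Irgm1 nearest at -0.09, and both slides show the same direction for each of them.

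In the Mtdh-knockout line, each of the 8 GTPases read lower with the W391D construct than with wild-type Mtdh, beside 50.3% of 27272 features. There was 1 array a group, each on a slide of its own, so the difference has no replicate check and no p-value, and construct and slide cannot be told apart. The median difference was -0.36 (log2), with a range of -0.53 to -0.14, against a median of 0.00 over all features, whose 5th and 95th percentiles were -0.22 and 0.20. At a limit chosen after the values were seen, 5 of the 8 were at least 1.2-fold lower, beside 3.04% of features, and 0 were at least 1.5-fold lower, beside 0.088%. None was 1.5-fold higher, beside 0.0807% of features. The rule that chose the genes reads all 8 arrays, so these counts too are a description.

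Iigp1 was at 1.63 with wild-type Mtdh and at 1.10 with W391D, a difference of -0.53 where the scanner software's own errors combine to 0.36. Gbp6 was at 2.00 and 1.53 (-0.47, error 0.44). Gbp2 was at 1.71 and 1.32 (-0.39, error 0.36). These 3 differences exceeded the spot error of the pair of arrays.

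Gbp3 was at 3.46 and 3.10 (-0.37, error 0.53), and Ifi47 at 1.44 and 1.09 (-0.35, error 0.35). Irgm2 was at 2.90 and 2.65 (-0.25, error 0.48), Irgm1 at 1.72 and 1.53 (-0.19, error 0.36) and Igtp at 2.14 and 2.01 (-0.14, error 0.40). Of these 5 differences, that of Ifi47 equalled the spot error at this rounding and the others were smaller than it. The second Irgm1 probe gave -0.17. The Mtdh signal was also lower on the W391D array, beyond the error only on the first Mtdh probe, and its part in these values was not tested.

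The rescue and vector cells differ in line, construct, selection and slide, which cannot be told apart here. Set beside the vector mean, the wild-type rescue values of the 8 genes lay between -0.47 and 1.62, with a median of -0.14, and the W391D values between -0.78 and 1.27, with a median of -0.51. Ifi47 and Irgm1 were above all 3 vector values on both rescue arrays, which 32.9% of features were. Iigp1, Igtp, Gbp3 and Gbp6 were below them on both, beside 26.2% of features. For Irgm2 and Gbp2 the wild-type value was inside the vector range and the W391D value below it.

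The largest such gap was that of Ifi47, at 1.44 and 1.09 in the rescue cells against -0.26 to -0.05 with the empty vector. Its Cy5 signal was 2250 and 1660 there, and 337, 598 and 480 in vector cells. Knockdown values were the lowest of all 8 arrays for 7 of the 8 genes, beside 16.5% of features.

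**Figure D4:**
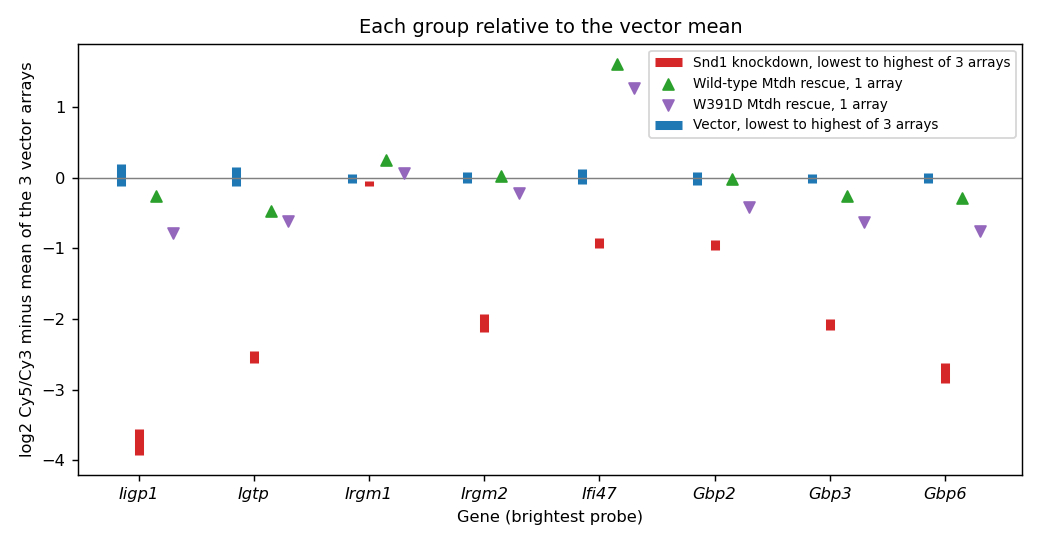
Each GTPase gene's log2 Cy5/Cy3 minus the mean of the 3 vector arrays (vertical axis), with bars from the lowest to the highest of 3 arrays for knockdown and vector and 1 triangle for each rescue array. Rescue values lie between -0.78 and 1.62, knockdown values reach -3.93 at Iigp1, and of the 8 genes only Ifi47 lies over 1 log2 unit above it in the rescue cells.

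Other genes of the families were taken from a list of 18, of which 12 were on the array by name and 10 could be tested. In knockdown cells 6 of these 10 fell (21.1% of all features did), 1 rose (23.6%) and 3 did not pass, with a median difference of -0.92. Gbp9 fell by 1.97 ± 0.06 (log2, adjusted p = 2.16e-07), from 1.52, 1.71 and 1.61 in vector samples to -0.38, -0.28 and -0.40, and its other probe gave -1.23. Gbp7 fell by 1.87 ± 0.10 (adjusted p = 2.68e-06), and Gbp4 by 1.07 ± 0.09 (adjusted p = 3.63e-05). Gbp8 fell by 0.77 ± 0.08 (adjusted p = 7.46e-05). The differences of Gbp4 and Gbp8, whose knockdown signals were dim (83.6, 136 and 119 for Gbp4), reached -2.20 and -1.54 under other processing.

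Gvin1, a very large inducible GTPase related to these families, fell by 1.87 ± 0.04 (adjusted p = 4.19e-08), with -1.51 and -0.80 on its other probes. Tgtp1, an effector IRG whose gene lies near Ifi47, fell by 1.26 ± 0.10 (adjusted p = 2.13e-05). Its second probe gave 0.10, so its probes disagree, and its difference ranged from -2.03 to -0.58 over the alternatives. Irgq, named because it was the 1 gene of the list that rose, was higher by 0.32 ± 0.06 (adjusted p = 0.0018). It lost that call under median centring and with Cy5 alone.

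Gbp2b (-0.30 ± 0.12, adjusted p = 0.0725), Gbp5 (0.14 ± 0.05, adjusted p = 0.0568) and Irgc1 (-0.10 ± 0.05, adjusted p = 0.12) did not pass. They are named after their values were seen. Gbp2b stayed uncalled under 9 and Gbp5 under 13 of 18 alternatives, and both were called, Gbp2b lower and Gbp5 higher, without the first knockdown array. Gbp5, Gbp7, Gbp3, Gbp2b and Gbp2 follow each other on chromosome 3 with no other protein-coding gene between them. Within that run Gbp7 and the members Gbp3 and Gbp2 were lower with the hairpin, whereas Gbp5 and Gbp2b were not called. The chromosome 5 run of Gbp8, Gbp9, Gbp4, Gbp10 and Gbp6 was lower at each of its 4 measured genes.

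As with Ifi47, some of these genes read higher in the rescue cells than in vector cells. Tgtp1 was at 1.23 and 0.87 there and at -0.47 to -0.12 with the vector. On its second probe, at -0.08 and 0.04 against -0.20 to -0.01, only the W391D value was above. Gbp8 was at 0.57 and 0.49 against -1.04 to -0.88. On its second probe, at 1.16 and 0.85 against 0.47 to 0.87, only the wild-type value was above. Gbp4 was at 1.88 and 1.59 against 0.26 to 0.57. Others read lower, with Gbp7 at 1.77 and 1.57 against 1.97 to 2.33 and Gbp9 at 1.51 and 1.19 against 1.52 to 1.71. Over all features, both rescue values were above the 3 vector values for 32.9% and below them for 26.2%. W391D was below wild type for 8 of the 10 genes (50.3% of all features), with a median difference of -0.08, beside -0.36 for the 8 members.

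Genes of interferon signalling, which lies upstream of the GTPases, fell in 15 of 23 cases (21.1% of all features did) and rose in 3 (23.6%), and 5 did not pass, with a median difference of -0.24. The ligand gene Ifnb1 was at 0.16, 0.30 and 0.15 in knockdown cells against 0.91, 1.00 and 0.91 (-0.73 ± 0.06, adjusted p = 1.8e-05). Its Cy5 signals of 85.6 to 119 in knockdown cells were dim, as were its Cy3 signals of 65.8 to 76.1. The difference reached -1.45 under other processing. Among the receptors of interferon gamma, Ifngr1 fell by 0.51 ± 0.04 (adjusted p = 2.23e-05) while Ifngr2 rose by 0.50 ± 0.04 (adjusted p = 4.11e-05). The receptor subunits therefore moved in opposite directions.

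The receptor kinases Jak1 (-0.12 ± 0.04, adjusted p = 0.0607) and Jak2 (-0.12 ± 0.07, adjusted p = 0.237) did not pass. The second Jak2 probe gave -0.07. Irf1, an interferon-induced activator of GBP genes, fell by 0.70 ± 0.06 (adjusted p = 4.64e-05). Irf1 was at 1.59 and 1.47 in the rescue cells, above the 0.19 to 0.35 of the vector samples. On its other probe the gap was smaller, with rescue values of 1.05 and 1.10 against 0.62 to 0.64. Signalling genes differed in direction there. Ifnb1 (1.27 and 1.55 against 0.91 to 1.00) and Ifngr1 (0.75 and 0.70 against 0.22 to 0.26) were also above. Irf7 (1.24 and 1.00 against 2.32 to 2.62), Irf9 (1.51 and 1.56 against 1.76 to 1.83) and Usp18 (0.72 and 0.61 against 1.41 to 1.54) were below.

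Irf7, a driver of type I interferon transcription, fell by 2.44 ± 0.10 (adjusted p = 5.6e-07), from 2.32, 2.62 and 2.38 to 0.14, -0.01 and -0.14. This is about the size of the Igtp difference. Irf9, the DNA-binding subunit of ISGF3, fell by 1.04 ± 0.06 (adjusted p = 3.69e-06), with -0.62 on its second probe. Usp18, an interferon-induced brake on the type I receptor, fell by 1.50 ± 0.06 (adjusted p = 5.33e-07). Socs1, an inhibitor of JAK kinases that interferon also induces, went the other way and rose by 0.89 ± 0.05 (adjusted p = 4.71e-06). The Ifnb1, Irf7, Irf9, Usp18 and Irf1 calls held under all 18 alternatives run, whereas Ifngr2 lost its call with Cy5 alone. W391D was below wild type for 16 of the 23 genes, beside 50.3% of all features, with a median difference of -0.09.

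**Figure D5:**
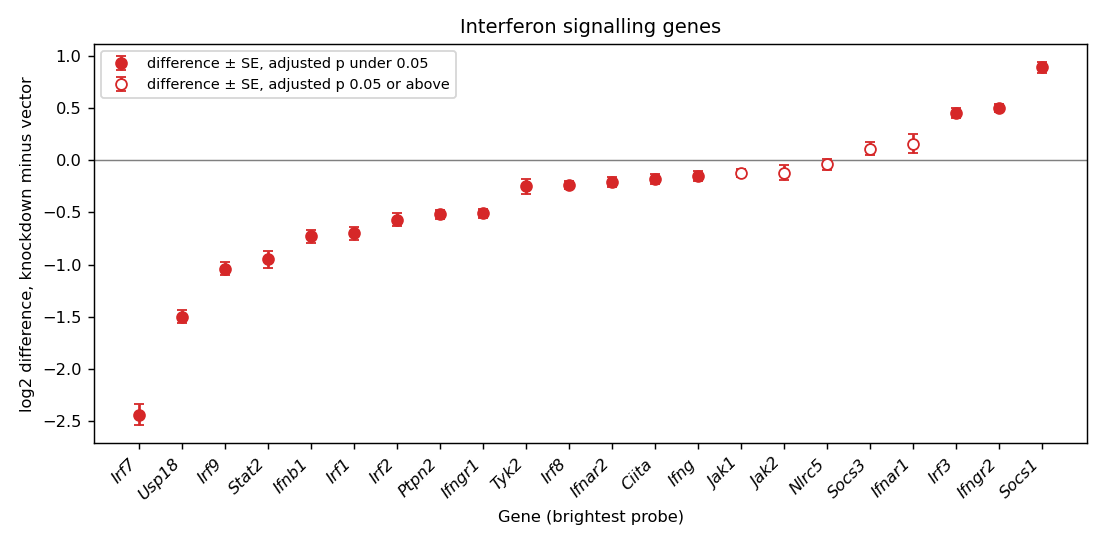
Knockdown minus vector difference (log2 Cy5/Cy3, vertical axis) of interferon signalling genes (horizontal axis), with the standard error from limma and filled circles for an adjusted p under 0.05. Irf7 and Usp18 lie lowest at -2.44 and -1.50, and Socs1, Ifngr2 and Irf3 are the filled circles above 0.

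A list of 16 genes held the autophagy conjugation system and other genes, such as Becn1, Sqstm1 and Trim21. Of these 16, 11 rose (23.6% of all features did), 2 fell (21.1%) and 3 did not pass, with a median of 0.31. Those 3, named after their values were seen, were the conjugation genes Atg5 (0.06 ± 0.04), Atg16l1 (0.07 ± 0.05) and Atg4b (0.06 ± 0.04). The second Atg4b probe gave -0.18. The 2 falls became 1 when knockdown array 2, vector array 2 or vector array 3 was left out. Map1lc3a rose by 0.84 ± 0.04 (adjusted p = 1.93e-06), Map1lc3b by 0.67 ± 0.05 (adjusted p = 2.4e-05; second probe 1.16), and the cargo receptor Sqstm1 by 0.87 ± 0.06 (adjusted p = 7.39e-06). Becn1 rose by 0.52 ± 0.05 (adjusted p = 6.2e-05) and Gabarapl1 by 0.44 ± 0.05 (adjusted p = 9.1e-05). The second Gabarapl1 probe gave 0.10, and its call was lost with Cy5 alone. Trim21, an interferon-induced ubiquitin ligase, fell by 1.25 ± 0.06 (adjusted p = 1.05e-06).

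Inflammasome genes, which act after GBP attack on bacteria, had 1 rise and 3 falls among 8 tested, beside 23.6% and 21.1% of all features, and 3 rises without the first knockdown array. The cytokine gene Il18 fell by 1.49 ± 0.05 (adjusted p = 2.9e-07) and Casp1 by 0.96 ± 0.08 (adjusted p = 3.74e-05). Casp8 fell by 0.27 ± 0.06 (adjusted p = 0.00495), and Gsdmd, the pore-forming substrate of the caspases, rose by 0.63 ± 0.06 (adjusted p = 7.75e-05). Aim2 and Nlrc4 were not well above background on any array.

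The members' median profile over the 8 arrays, with the vector mean set to 0, was -1.97, -2.06 and -2.17 in knockdown samples, -0.14 with wild-type Mtdh and -0.51 with W391D. Among 17536 named genes, those with the smallest root mean square difference from it were Selenop (0.0841), Gbp9 (0.0963), Ly6a (0.115), Gbp7 (0.157), Palmd (0.163), Ly6c1 (0.175), Cmpk2 (0.2) and Gsta4 (0.206). This is a description over 8 arrays, and the arrays that chose the members weigh most in it. The list holds 2 GBP genes, and Cmpk2, a mitochondrial nucleotide kinase, is an interferon-induced gene. Cmpk2 differed by -1.96 ± 0.07 between knockdown and vector on the probe used here, and by -1.10 on its other probe. Selenop, the secreted carrier of selenium, differed by -2.16 ± 0.05 between knockdown and vector and Ly6a, a surface antigen, by -2.18 ± 0.07.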

How the data were processed

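RNA of 8 samples was measured on 2-colour Agilent arrays, with groups taken from the labels. Per the file headers, the deposited intensity values are median spot signals of both dyes, extracted with Feature Extraction 11.0.1.1 (the submitters' processing notes name 9.5.3.1), and the deposited log10 ratios set Cy5 over Cy3 once the software had subtracted background and normalized the dyes. The authors' deposited log2 value table followed those ratios (r of 0.9878 to 1 with its own array), and its columns, with medians of 0.0256 to 0.146, were not centred. The deposited spot flags were used as given. The design had foreseen mean signals, and median signals were used.

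In R 4.3.3, limma 3.58.1 was used to correct the intensities for background by normexp with an offset of 50 and to normalize each array by loess, leaving out 1639 control spots and 77 to 142 outlier spots per array. No spot was saturated. Accessions were matched to RefSeq symbols of GRCm38.p6, which named 27668 of 41174 probes. The brightest probe stands for a gene. Other probes of named genes are given where their knockdown minus vector differences differ by more than 1.5 times. Cross-hybridisation between close paralogs was not tested.

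Knockdown and vector were compared with limma (lmFit, eBayes) over 25904 features whose Cy5 signal cleared the background flag on 3 or more of the 6 arrays, adjusted by Benjamini-Hochberg and called under 0.05. Adjusted p-values in the text come from this fit, which was tested on simulated data. The standard error of a member is from the same fit. Rescue arrays were compared as single values. The only precision given there is the scanner software's error of its log ratio, combined over both arrays. The number of arrays limits the precision.

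The members and lists were chosen with earlier results of these data known. Named are all members with every probe, up to 6 called genes of each list by smallest p, the defining genes Ifngr1, Ifngr2, Jak1, Jak2 and Irf1, the 8 genes nearest the members' median profile, and Snd1 and Mtdh. A gene that the rule also takes is not reported here, though the counts of its list include it. Same-numbered knockdown and vector arrays deviated together (r of 0.596, 0.325 and 0.337). By a rule of r over 0.1, from the data and not from the labels, the numbers were taken as pairs in the replicate block only. That block is an alternative, and the main fit had no pairing and no block. The pairs share slides, and the other pairs on the second slide had r of 0.244 and 0.390. Alternatives covered background correction, normalization, the value table, Cy5 alone, filters, probe choice, blocks by replicate number and slide, single slides and leaving out each array.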

Additional observations from a re-analysis of the deposited data

How the results depend on the processing

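The 8 GTPases were lower in knockdown than in vector cells under each of 19 alternatives, with Iigp1 between -4.92 and -3.47 and Irgm1 between -0.24 and -0.07. Their median of -2.07 became -2.38 under median centring and with Cy5 alone, and -2.12 to -2.01 with 1 array left out. The count of members at least 2-fold lower, 5, became 7 with the Feature Extraction log ratios and the deposited value table. It was also 7 under median centring, with Cy5 alone and within the second slide, and 5 to 6 with 1 array left out. The features called higher, 6125, became 3626 with Cy5 alone. Among the other IRG and GBP genes the 1 called higher became 0 under median centring and with Cy5 alone, 2 with Cy5 above background on all 6 arrays, under the replicate block, the slide block and within the second slide, and 1 to 2 with 1 array left out. Autophagy genes called lower, 2, became 1 without background correction, with the Feature Extraction log ratios, with the deposited value table, with scaling between arrays, with Cy5 alone and with the mean of all probes, and 1 to 2 with 1 array left out. Those called higher, 11, became 7 with Cy5 alone. Inflammasome genes called higher, 1, became 2 with the filter on all 6 arrays, the mean of probes, the replicate block and the second slide, 3 with the slide block, and 1 to 3 with 1 array left out. The cause was not tested. The replicate block, which pairs arrays of the same number, called 7045 features higher and 5962 lower. Apart from the other IRG and GBP genes and the inflammasome genes called higher, it moved no count of calls by over 1.5 times. Dim signals in knockdown cells limit the folds of Iigp1 and Gbp6. The median W391D difference of -0.36 was -0.47 to -0.25 over its alternatives.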
